A study of Malus domestica with 5 samples.

Results

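The dominant small RNA repeats of apple (Malus domestica) buds are the numbered repeats with the highest counts in a table of small RNA reads. They were chosen by abundance alone: a repeat belongs to them when its mean raw count over all 5 libraries is 5000 or more. This holds for 501 of the 429395 repeats in the table, or 0.117%, among 430043 features in all. Small RNAs were sequenced from buds of the juvenile phase (2 libraries) and of the reproductive phase (3 libraries). The labels describe the juvenile material as sucker shoots of juvenile character from the base of the stem, and the reproductive material as buds of that phase. No cultivar, age, treatment or genetic change is named in the labels of either group. Nor do they tie replicates to different trees, so the p-values cover only how these 5 libraries vary, which may be technical variation. A small RNA table holds no messenger RNAs as markers of tissue, and its miRNA rows were not used here to check tissue or phase.

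Plants make small interfering RNAs from repeated DNA such as transposons and tandem arrays, and these RNAs guide DNA methylation and silencing back to the repeats. Annotations of repeats can also hold arrays of ribosomal RNA genes, whose abundant transcripts leave short fragments. The table gives each repeat a number but no class, sequence, length or position, so the kind of repeat behind each row is not known here and no sequence is shown. How reads that match several repeats were counted is not stated, so sums of counts need not be numbers of reads, the read depth is unknown and no counting interval is given. Sums of counts per library ran from 85087230 to 140173167.

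The dominant repeats held most of the counts of the juvenile libraries and a smaller part of the reproductive ones. Their share was 60.4% and 63.3% in juvenile replicates 1 and 2, and 40.4%, 40.5% and 38.4% in reproductive replicates 1, 2 and 3. Every juvenile library thus lay above every reproductive library, with means of 61.9% ± 2.04 (SD, n = 2) and 39.8% ± 1.18 (SD, n = 3). The difference, reproductive minus juvenile, was -22.1 percentage points and larger than the spread between replicates, and the two-sided exact permutation test gave p = 0.1, the smallest value that the 10 splits of 2 against 3 libraries allow. The mean count that chose the members uses these same counts, so this p-value is a description and no independent support. With each distinct set of counts taken once, in the members and in the sum, the means were 60.3% and 37.0%. The share of the less abundant repeats lay the other way: those of mean 500 to 5000 held 20.8% ± 0.895 of juvenile and 28.8% ± 0.328 of reproductive counts, and those of mean 50 to 500 held 13.4% ± 1.07 and 25.9% ± 0.971. Shares within a library add up to a fixed total, so a loss of the dominant repeats and a gain of the others cannot be told apart.

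Abundance was very uneven among the members. Mean counts ran from 5004.4 to 2079384.4 with a median of 7598, and 27 of the 501 members held 50% of all member counts. In the highest class, 121 members had a mean of 100000 or more and together held 56.7% ± 2.02 of juvenile and 35.5% ± 1.24 of reproductive counts. A further 102 members lay between 10000 and 100000, with 3.82% ± 0.057 and 2.77% ± 0.192. The largest class by number, 278 members between 5000 and 10000, held only 1.34% ± 0.0365 of juvenile and 1.55% ± 0.0222 of reproductive counts, and was the class whose share was higher in the reproductive libraries. As a point of comparison, the row of the miRNA miR166a had a mean count of 262574, and 55 members lay above it. At the lower edge the step was small: the 3 lowest distinct sets inside had means of 5004.4, 5020.8 and 5022, the 3 nearest outside had 4988.2, 4985.8 and 4964.2, and 332 other repeats lay between 4000 and 5000.

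The members gathered in a few blocks of the repeat numbering. Joining members whose numbers lie at most 1000 apart gave 8 blocks of 20 or more members, a step chosen after the numbers were seen, and these held 461 of the 501. Each block is named here by its first repeat number without the last 3 digits. Block 1289 had 140 members, block 1190 had 107, block 1174 had 62, block 987 had 37, block 1256 had 32, block 1292 had 31, block 1254 had 29 and block 973 had 23. The remaining 40 members were scattered. Repeat numbers are not coordinates, and the sources used here do not say how the repeats were ordered.

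Block 1289 alone carried most of the member counts. It held 40.5% and 43.1% of the counts in the juvenile libraries and 26.2%, 24.5% and 22.7% in reproductive replicates 1, 2 and 3. All juvenile values lay above all reproductive ones, and the mean share was 1.71-fold larger in juvenile libraries. Blocks 1256 and 1292 followed with near-equal shares, 7.20% ± 0.0116 and 6.83% ± 0.0115 in juvenile and 5.56% ± 0.513 and 5.28% ± 0.488 in reproductive libraries. Block 1254 held 4.28% ± 0.157 and 2.67% ± 0.0813. The other 4 blocks were small in counts. Block 1174 went from 0.413% ± 0.00341 to 0.245% ± 0.00486, while block 1190 stood at 0.460% ± 0.0272 and 0.690% ± 0.0184, block 973 at 0.0832% ± 0.00317 and 0.144% ± 0.00634, and block 987 at 0.116% ± 0.00543 and 0.209% ± 0.00926. In each of the 8 blocks the shares of the groups did not overlap, with 5 blocks lower and 3 higher in the reproductive libraries. Among all features tested, counts over the sum did not overlap in 3.3% lower and 88.1% higher. The members were chosen on raw counts of these same libraries, so the block shares are a description. Blocks 1256 and 1292, and block 1254 and a part of block 1289, have identical rows, as described below. The 5 lower blocks are therefore not 5 separate results.

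**Figure D1:**
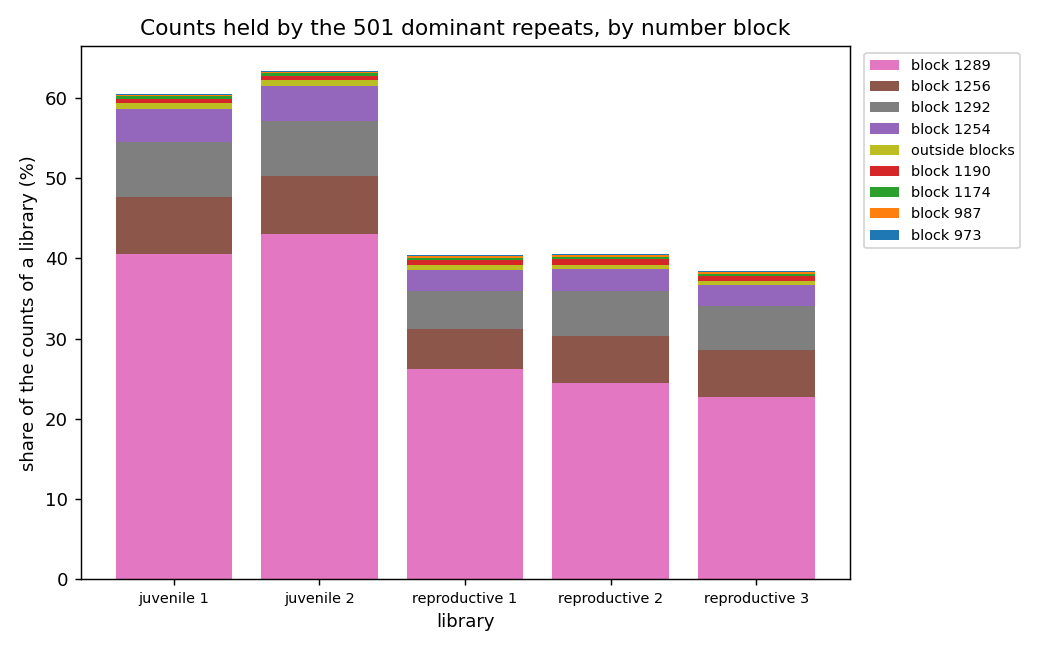
Stacked bars give the share of each library's counts (%, y axis) held by the 501 dominant repeats in the 5 libraries (x axis), coloured by number block. The 2 juvenile bars reach 60.4% and 63.3% and the 3 reproductive bars 40.4%, 40.5% and 38.4%, and block 1289 is the largest part of every bar.

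Blocks differed in how level their members were. In blocks 973, 987 and 1174 the most abundant member had 1.47, 1.27 and 1.15 times the mean count of the least abundant, so members of these blocks stood nearly side by side. In blocks 1254, 1256 and 1289 the quotient was 180, 224 and 404. Members were a minority of the rows even inside their blocks, from 0.712% of the 3229 rows spanned by block 973 to 17.1% of the 187 rows of block 1256 and 17.4% of the 178 of block 1292. The other rows of block 1289 had a median mean count of 232, against a median of 111810 for its members.

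Members often followed each other in the numbering. Of the 501, 242 (48.3%) stood in 87 runs of directly consecutive numbers, although members are 0.117% of all repeats. Most runs were short, with 57 of 2 members, 17 of 3 and 7 of 4. The longest had 15 members and lay in block 1256, with 9 and 8 in the next, in blocks 1292 and 1289. Rows that directly neighbour a member without being one were also more abundant than usual: 242 of 630 (38.4%) had a mean of 500 or more, against 6.65% of all other repeats, and their median mean count was 306, against 23.8 over all repeats. Non-member rows of the blocks, taken whole, had median mean counts from 29.2 (block 1190) to 411 (block 1254). A high count next to a member is thus not separated from a high count of its block. Neighbours can share reads, so they are not independent measurements.

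The longest run shows how alike neighbours were in change and how unlike in level. Its 15 members, all with different counts, ranged in mean count from 102389 to 466259. Their log2 fold changes, reproductive over juvenile under TMM scaling (library sizes adjusted so that most features change little), lay between -1.54 and -1.46. The most abundant of them had 476646 and 418124 juvenile counts, and 466781, 485002 and 484741 counts in reproductive replicates 1, 2 and 3. Its raw counts were thus level across the groups, in reproductive libraries whose TMM-adjusted sizes were 3.05-fold larger on average. Over the 142 pairs of direct neighbours with different counts in the member list, the median difference in log2 fold change was 0.0534, against 0.72 over all pairs of distinct sets of counts. The second value mixes blocks. Within blocks the SD of the log2 fold change ran from 0.03 (block 987) to 0.45 (block 1289). Likeness of neighbours was thus not separated from likeness within a block. The largest difference between neighbours was 2.34.

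A part of the members had the same counts as another row in all 5 libraries. The 501 rows held 413 distinct sets of counts, with 347 rows alone and 154 rows in 66 sets of identical rows. An identical row elsewhere in the table existed for 30.7% of members and for 17.9% of all tested repeats. Of these 66 sets, 60 were pairs. No member had the counts of a miRNA or candidate miRNA row, even within 5% in every library, although 23 such rows had a mean of 5000 or more.

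The pairs of identical rows mostly tied whole blocks together. Of the 32 members of block 1256, 31 had an identical row in block 1292, and all 31 members of block 1292 had one in block 1256, in the same order. In 24 of the pairs the numbers differed by exactly 35463. The match went beyond the members: of 185 rows of block 1256 with any counts, 125 had a row with identical counts at that same offset. Block 1254 was matched in the same way to a part of block 1289: 28 of its 29 members had an identical row there, again with no change of order over the 27 shared sets, and with 15 different offsets, of which 35191 was the commonest (7 pairs). The rows of block 1289 matched in block 1254 held 10.4% of the member counts of block 1289. With equal counts, the blocks of a pair are not separate evidence.

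**Figure D2:**
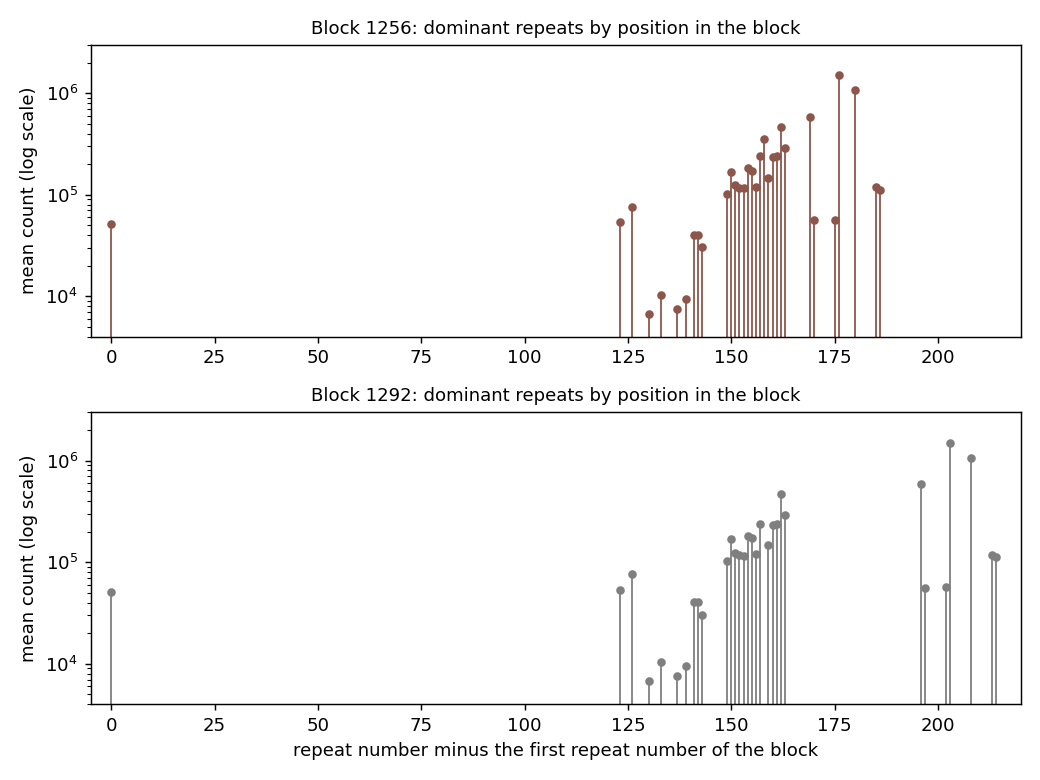
Mean count over 5 libraries (log scale, y axis) of the members of block 1256 (upper panel) and block 1292 (lower panel), by repeat number counted from the first member of the block (x axis). Each point is a member, and 31 members of each block have an identical counterpart in the other, in the same order with a wider gap before the last of them in block 1292.

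Block 1174 held a different kind of repetition, within the block. Its 62 members had 34 distinct sets of counts and formed 103 identical pairs among themselves and none with another block. The largest set counted 12 rows. Each of these had 6611 and 5710 counts in juvenile replicates 1 and 2. In reproductive replicates 1, 2 and 3 each had 5466, 4869 and 4703. The raw counts of the larger reproductive libraries lay below both juvenile ones. The next sets had 6, 5 and 4 rows with counts within a few percent of these, for example 6742, 5840, 5647, 5074 and 4880 in the set of 6. Block 1190, with 107 members, and blocks 973 and 987 held no identical member rows at all.

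Nearly equal counts, within 1% in every library, joined 71 of the 413 distinct sets into 25 groups, and 18 of these groups lay within a single block. The largest held 13 sets and 30 rows of block 1174, with 6576 to 6678 counts in juvenile replicate 1 and 5383 to 5539 in reproductive replicate 1. A group of 5 sets in block 1289 ran from 128004 to 128352 counts in juvenile replicate 1 and from 119228 to 119569 in reproductive replicate 1. A group of 3 sets with 6 rows joined blocks 1254, 1256, 1289 and 1292. These counts depend on the tolerance: 19 sets were joined at 0.1% and 290 at 5%, where the largest group held 107 sets of 4 blocks and of members outside blocks, so that groups at that tolerance mix rows with no other tie.

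Across the comparison of reproductive with juvenile buds, nearly all members were lower than the table as a whole. A quasi-likelihood test in edgeR, with TMM library sizes and Benjamini-Hochberg adjustment over 282619 features, called 495 of the 501 lower and 2 higher at an adjusted p under 0.05. Over all features tested, 24.3% were called lower and 21.1% higher. DESeq2 called the same numbers of members, 495 lower and 2 higher, against 20.8% and 12.7% of features. The groups stood apart without overlap, in TMM-normalised counts, in 496 members with reproductive libraries lower and in 2 with them higher, against 33.0% and 36.1% of features. The median log2 fold change was -1.49 over members, with quartiles of -1.86 and -0.50, and 0.08 over all features.

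The direction of many members turned with the scaling. Sums of counts, in which the members themselves are a large part, differed 1.41-fold between the groups, and TMM-adjusted library sizes 3.05-fold. Under the sums the median of all features moved to 1.19 on the log2 scale, and edgeR called 285 members lower and 196 higher, against 2.46% and 83.3% of features. Counts over the sum did not overlap in 288 members lower and 199 higher, against 3.30% and 88.1% of features. Another set of library sizes moves the log2 fold changes of all features by nearly the same amount, so the position of members relative to the median feature is kept by construction: the member median minus the median of all features was -1.57 on the log2 scale under TMM, -1.55 under the sums and -1.57 under DESeq2 size factors, and 499 of the 501 members lay below that median under both TMM and the sums. With library sizes taken as the sums of counts outside the members, an alternative added after the data were seen, edgeR called 336 members lower and 46 higher, against 10.5% and 46.5% of features.

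The median change was higher in each less abundant class of repeats, and passed the median of all features in the lowest class. The median log2 fold change under TMM was -0.47 for the 28511 other repeats of mean 500 to 5000, -0.02 for those of mean 50 to 500, and 0.42 for tested repeats of mean under 50. It was -0.24 for 164 tested rows of named miRNAs. Of the 261265 repeats of mean under 50, 114129 passed the count filter and were tested. Counts in the more numerous and larger reproductive libraries can carry a low row past that filter, so the median of this class may depend on it. Among the members, the 121 of mean 100000 or more had a median of -1.69, the 102 between 10000 and 100000 one of -1.60, and the 278 between 5000 and 10000 one of -0.56. Over the 413 distinct sets, Pearson's r between log10 mean count and log2 fold change was -0.645 and Spearman's rho -0.553, as a description: the sets share 5 libraries and partly their reads, and the mean count weights the reproductive libraries, which are more numerous and have larger sums of counts. Choosing the same number of repeats by the mean of the TMM-normalised group means kept 422 of the 501 members and gave a median of -1.64.

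**Figure D3:**
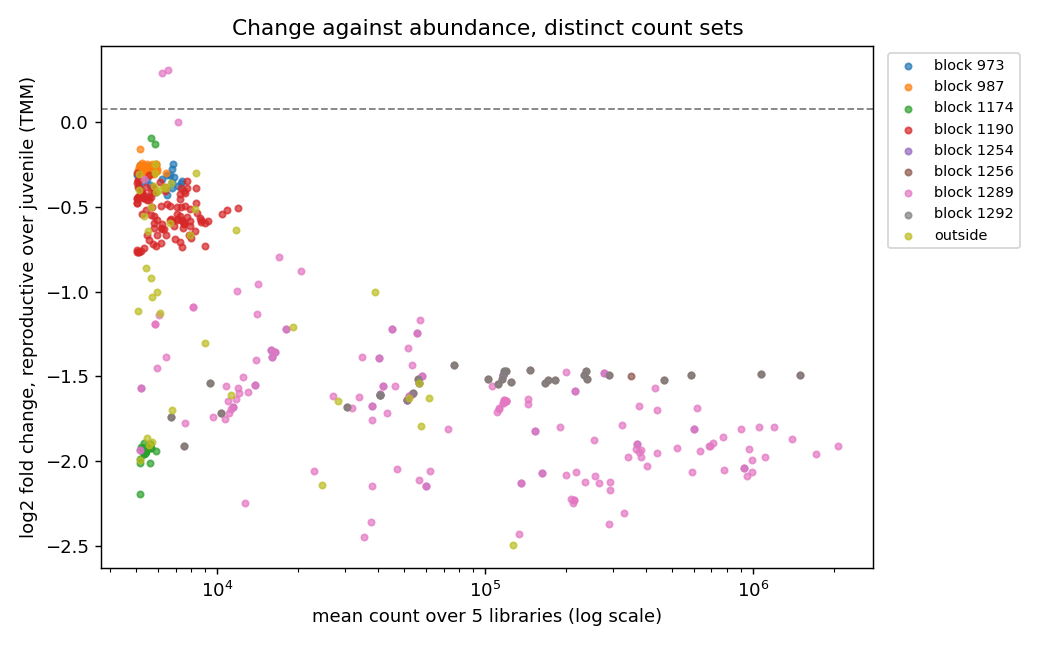
Log2 fold change, reproductive over juvenile under TMM (y axis), against the mean count over 5 libraries (log scale, x axis) for the distinct sets of counts of the members, coloured by block. The dashed line is the median of all features tested, 0.08, and the sets of mean 100000 or more all lie between -2.49 and -1.46.

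The spread of change among members was mostly a spread between blocks. The SD of the log2 fold change was 0.67 over members and 0.89 over all features, and 81.4% of the variance over the 461 members in blocks lay between blocks. That share counts identical rows separately and was not computed over distinct sets of counts. The narrowest blocks were 987, 973 and 1256, with SDs of 0.03, 0.05 and 0.10. In block 987 the members ran from -0.34 to -0.16 around a median of -0.28, and 36 of 37 were called lower under TMM, while 37 of 37 were called higher under the sums. Block 973 (median -0.34, 23 of 23 lower) and block 1190 (median -0.52, 107 of 107 lower) turned in the same way, with all members called higher under the sums. Of all features tested, 24.3% were called lower under TMM and 83.3% higher under the sums, so most of the table is called higher there too. Relative to the median feature the medians of blocks 987, 973 and 1190 were -0.35, -0.41 and -0.59 under TMM. The other repeats of mean 500 to 5000 stood at -0.55 on that measure, lower than blocks 987 and 973. Their direction on its own rests on the scaling.

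The medians of the other blocks were negative under both scalings. Block 1174 had a median of -1.92, with 60 of 62 members called lower under TMM and also under the sums, where the other 2 were called higher. Of all features tested, 24.3% were called lower and 21.1% higher under TMM, and 2.46% lower and 83.3% higher under the sums. In blocks 1256 and 1292 the medians were both -1.52, and all 32 and 31 members were called lower under each scaling. Block 1254 had a median of -1.59 and 29 of 29 members lower under TMM, 26 under the sums. Block 1289 was the widest, from -2.45 to 0.31 around a median of -1.69, with 137 of its 140 members called lower and 2 higher under TMM, and 122 lower and 7 higher under the sums. Without block 1289 the median over the remaining 361 members was -0.74, and 358 of them were called lower and 0 higher by edgeR under TMM. The 0 was fixed in advance, since the 2 members called higher lie in block 1289.

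**Figure D4:**
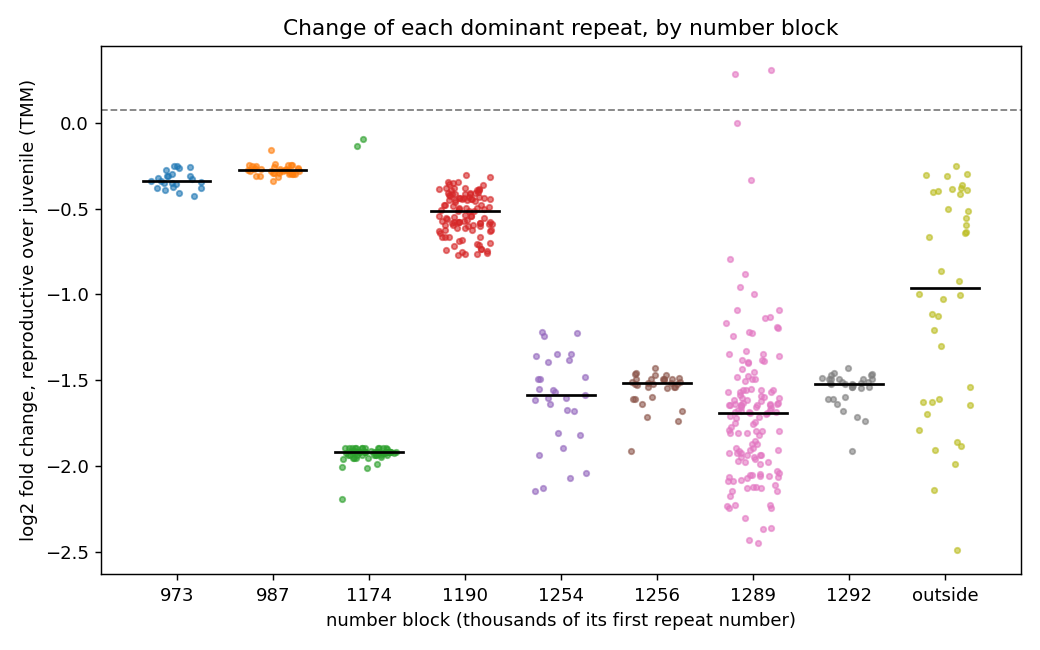
Log2 fold change, reproductive over juvenile under TMM (y axis), of each of the 501 members by number block (x axis), with block medians as black lines and the median of all features tested, 0.08, as a dashed line. Blocks 973, 987 and 1190 lie between -0.77 and -0.16, blocks 1254, 1256 and 1292 at -1.22 or lower, and 2 members of block 1289 lie above the dashed line.

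Quotients of blocks within a library do not depend on the scaling. Block 987 over block 1289 was 0.00296 and 0.00260 in juvenile replicates 1 and 2, and 0.00837, 0.00822 and 0.00911 in reproductive replicates 1, 2 and 3, a 3.08-fold difference. Block 973 over block 1289 was 2.96-fold higher and block 1190 over block 1289 2.57-fold higher in the reproductive libraries, each with groups that did not overlap. Each of these 3 had a two-sided exact permutation p of 0.1, the smallest possible, and 0.233 after Benjamini-Hochberg adjustment over the 7 quotients compared. In blocks 973 and 987 every member had juvenile counts under 5000, so it reached a mean of 5000 only through the reproductive libraries. The members were thus chosen on these same counts, and the blocks were drawn after the numbers were seen. The p-values of the quotients are therefore a description and no independent support. Block 1174 over block 1289 was 0.0103 and 0.00952 against 0.00939, 0.0102 and 0.0106, with overlapping groups (exact p = 0.8, adjusted 0.8). Block 1256 over block 1289 was 0.178 and 0.167 against 0.190, 0.240 and 0.257, where reproductive replicate 1 lay nearest to the juvenile values (exact p = 0.2, adjusted 0.233). The quotient of the matched block 1254 over block 1289 differed by 1.07-fold (exact p = 0.2, adjusted 0.233).

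Rows of the blocks that the abundance rule left out moved in part like the members. In block 1174 the 364 other rows of mean 500 or more had a median log2 fold change of -1.77, and all 364 were called lower by edgeR under TMM, against a member median of -1.92. In block 987 the 343 such rows had a median of -0.28, that of the members, and in block 973 the 674 such rows had one of -0.34, again that of the members. In block 1190 the 1063 such rows lay at -0.58, against -0.52. The blocks with the most abundant members were different: rows of mean 500 or more had medians of -0.69 in block 1289 (342 rows, 256 called lower and 27 higher), -0.83 in block 1256, -0.77 in block 1292 and -0.71 in block 1254, while members lay at -1.69, -1.52, -1.52 and -1.59. Over all 28511 other repeats of mean 500 to 5000 the median was -0.47, with 67.9% called lower and 12.2% higher. The 74.9% and 7.89% among such rows of block 1289 lay near these shares. The difference between members and other rows was not tested, since the members were chosen on counts of the same libraries.

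Single members show the range. The most abundant, repeat_1289403, had 2393440 and 2245734 counts in juvenile replicates 1 and 2, and 2318072, 1775578 and 1664098 in reproductive replicates 1, 2 and 3. Its share was 2.46% and 2.64% in juvenile and 1.65%, 1.45% and 1.35% in reproductive libraries, so the shares did not overlap. It fell 3.76-fold in normalised counts, from 4577500 ± 719000 to 1219300 ± 167000 (SD, n = 2 and 3). The log2 fold change was -1.91 with an SE of 0.21 under TMM (edgeR, adjusted p = 2.3e-06) and -0.78 under the sums. The largest fall belonged to repeat_980820, which lies outside the blocks. Its counts were 178762 and 170462 in juvenile replicates 1 and 2, and 111132, 93208 and 84932 in reproductive replicates 1, 2 and 3, where even the raw counts of the larger libraries lay below both juvenile ones. This was a 5.62-fold fall in normalised counts, or -2.49 on the log2 scale with an SE of 0.15 (edgeR, adjusted p = 2.1e-09), and -1.36 under the sums.

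The 2 members called higher lay close together in block 1289, among rows that were called lower. repeat_1289393 had 2965 and 2000 juvenile counts, and 9317, 9396 and 9143 counts in reproductive replicates 1, 2 and 3. For repeat_1289400 the juvenile counts were 2848 and 1919, and the reproductive counts 9098, 8839 and 8434. In both, all reproductive counts lay above the juvenile ones, in raw and in normalised counts. In normalised counts the first rose 1.24-fold (0.31 on the log2 scale with an SE of 0.10; edgeR, adjusted p = 0.018) and the second 1.22-fold (0.29 with an SE of 0.10; adjusted p = 0.024). Under the sums their log2 fold changes were 1.42 and 1.40. Both calls ended in edgeR without juvenile replicate 2 (log2 fold changes 0.24 and 0.21, adjusted p = 0.14 and 0.17) or without reproductive replicate 2 (0.26 and 0.24, adjusted p = 0.12 and 0.15), and with the replicate number as a block (0.32 and 0.32, adjusted p = 0.054 and 0.056). The direct neighbours of repeat_1289400 in the numbering are members with mean counts of 1053355.4 and 776497.2 and log2 fold changes of -1.80 and -2.05, and the most abundant member stands 3 numbers after it.

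Another 4 members were called in neither direction under TMM, and were picked out after their values were seen. In block 1174, 2 members stood apart from the other 60, with log2 fold changes of -0.13 and -0.10 (edgeR adjusted p = 0.27 and 0.44) and overlapping groups. A member of block 1289 stood at 0.002 on the log2 scale with an SE of 0.14 (edgeR, adjusted p = 0.99). It had 6159 and 6221 juvenile normalised counts, against 7850, 5373 and 5366 for reproductive replicates 1, 2 and 3, with the first of these above and the others below both juvenile values. The fourth, in block 987, had -0.16 (edgeR adjusted p = 0.19).

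The median SD of log2 normalised counts between replicates was 0.145 between the 2 juvenile and 0.0992 between the 3 reproductive libraries over members, against 0.203 and 0.142 over all features tested. The widest members reached 0.338 and 0.353, both in block 1289. These are not the 2 members called higher, whose log2 fold changes of 0.31 and 0.29 each had an SE of 0.10. Reproductive replicate 1 had the highest normalised count of its group in 257 of the 501 members. In block 1289 this held for 55 of 140 members, and in block 1256 for 0 of 32, so the reproductive libraries did not differ by a common factor. As one of the most abundant examples, the third set by mean count, shared by blocks 1256 and 1292, had 1516774 and 1329418 juvenile counts, and 1521915, 1573258 and 1567567 reproductive counts, or 1.56% and 1.56% against 1.09%, 1.28% and 1.27% of the counts. The 10 most abundant distinct sets, which lie in blocks 1289, 1256 and 1292, held 15.6% ± 0.641 of juvenile and 9.58% ± 0.612 of reproductive counts when each was taken once, and all 10 had lower shares in every reproductive library than in any juvenile one.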

How the data were processed

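Small RNAs of 5 bud libraries were gel-purified, ligated to adapters and amplified, per the labels' protocols. The authors deposited 1 table of whole-number read counts per feature, not normalised. The aligner Bowtie, version 1.1.2, comes from the submitters' processing notes. For the genome build, the repeat annotation and reads with several matches, the entry is not given in the sources used here. Columns were matched to titles by the initials of phase and tissue and by replicate number.

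Features that reached 10 counts in 2 or more libraries (282619, all 501 members included) were tested with edgeR 4.0.16 in R 4.3.3 (glmQLFit and glmQLFTest, TMM, group only, Benjamini-Hochberg, threshold 0.05). DESeq2 1.42.0 was an alternative. The SE of a log2 fold change is its size over the square root of F. Normalised counts are counts over TMM-adjusted library size times the geometric mean of those sizes. Single values were compared with exact permutation tests. The members and lists were chosen with earlier results of these data known, and blocks of numbers after the numbers were seen. Named members are those called, with groups that do not overlap, of largest fold change and of highest mean count in each direction, at most 2 per direction because repeats have no names.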

Additional observations from a re-analysis of the deposited data

How the results depend on the processing

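Results came from 159 alternative values. Of these, 123 kept their call or stayed within the replicate spread or 1.5 times the count. Another 30 moved further and 6 lost a call (the 2 members called higher). No median over members, share difference or named member changed sign. Percentages and counts of members could not be labelled as reversed, and under the sums all members of blocks 973, 987 and 1190 did change sign. Under sums of counts, 56.9% of members were called lower and 39.1% higher (median log2 fold change -0.36; groups without overlap 57.5% and 39.7%), and under sums outside the members 9.18% were called higher, against 46.5% of all features (medians -1.02 and 0.53). No member was called higher (0%) without juvenile or reproductive replicate 2 (range over libraries left out 0% to 0.399%). The 0% without block 1289 and at a mean of 20000 or more was fixed in advance, since these choices drop the 2 members called higher. The choice by TMM-normalised group means also dropped them and gave 0%. The median, also relative to all features, was -1.17 and -1.24 over distinct sets, -0.67 and -0.74 at a mean of 2000 or more, -1.64 and -1.72 at 20000 or more (SD 0.28) and by group means, and -0.74 and -0.82 without block 1289. Shares were 66.2% and 45.1% at 2000 or more, 37.8% (reproductive) at 20000 or more and 37.0% over distinct sets. Nearly equal groups held 19 sets at 0.1% and 290 at 5%. With the replicate number as a block, which the labels do not tie to a shared tree or day and which leaves reproductive replicate 3 without a partner, 433 members were lower and 0% higher (46749 features higher, 55391 lower). Deviations of same-numbered libraries correlated at -0.116 and -0.0247, so the numbers were not taken as pairs. A step of 500 gave 7 blocks with 434 members. The causes were not tested. Depth in reads is unknown.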
